A study of Mus musculus with 12 samples.

Results

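The Hist genes encode the linker histone H1 and the core histones H2A, H2B, H3 and H4, and the mouse genome holds many near-identical copies of each in 4 clusters. All genes of the deposited table whose symbol begins with Hist1h, Hist2h, Hist3h or Hist4h were taken, which gave 67 of the 24254 genes in the table. They comprised 6 H1, 18 H2A, 18 H2B, 12 H3 and 13 H4 genes. On mm10, 53 of them lay on chromosome 13 (Hist1), 10 on chromosome 3 (Hist2), 3 on chromosome 11 (Hist3) and 1 on chromosome 6 (Hist4). The genes were taken by name, and none was kept or left out for its values, but the set was chosen with earlier results of these data known.

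The libraries hold mRNA of fully grown oocytes still arrested in meiotic prophase (germinal vesicle stage), from mice of 3 Marf1 genotypes. MARF1 is an oocyte RNA-binding protein with a ribonuclease-like domain. The genotypes were a Marf1 gene trap (GTMut), a Marf1 mutant that the labels name D272 (D272Mut) and wild type (WT), with 4 libraries of 80 oocytes each. All mice were C57BL/6 of 3 weeks, and PMSG (5 IU per mouse), a hormone given to make follicles grow, preceded oocyte collection by 46 h. All 3 genotypes, WT included, had this hormone. The labels do not say whether the mutations are homozygous, or whether each library had its own mice, so a p-value here measures the spread between libraries, which may be technical.

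Histones package DNA into nucleosomes, in which H2A, H2B, H3 and H4 form the core and H1 binds the linker. Most Hist genes are transcribed in S phase, when new DNA needs histones, and their mRNAs carry no poly(A) tail. These mRNAs end instead in a short stem-loop, which the stem-loop binding protein SLBP binds for processing, translation and stability. A fully grown oocyte does not replicate its DNA, but it stores histone mRNA and protein for the early embryo. Some Hist genes also give polyadenylated transcripts, and only those carry the tail at which oligo(dT) primes. The labels name both amplification by Smart-seq2, which primes at poly(A), and a kit that primes at random, so it is unknown which of these RNAs the libraries favour.

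The stem-loops are shown because they are the shared 3′ element of these mRNAs. They were sought in the GENCODE M21 transcripts (GRCm38, the build of mm10) on the sense strand as the stem GGNNNN, the loop TTNN and the stem NNNNCC without a gap, the stems complementary over all 6 bases, and 44 of the 67 genes held one. The capitals mark the 16 bases of the stem-loop, written as DNA, with 5 annotated bases on either side. In each type the most frequent form was the one shown for Hist3h2ba, except in H4, whose stem most often read as in Hist1h4h.
Hist3h2ba: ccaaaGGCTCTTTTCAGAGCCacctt
Hist1h2bg: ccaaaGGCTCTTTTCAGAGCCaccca
Hist1h2be: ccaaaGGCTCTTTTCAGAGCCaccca
Hist1h2bk: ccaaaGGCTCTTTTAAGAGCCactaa
Hist1h1c: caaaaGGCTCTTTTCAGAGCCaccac
Hist1h1e: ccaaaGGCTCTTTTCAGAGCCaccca
Hist1h2ao: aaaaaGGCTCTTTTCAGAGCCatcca
Hist1h4h: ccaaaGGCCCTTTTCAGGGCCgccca
Hist1h4i: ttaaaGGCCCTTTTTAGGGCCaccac
Hist2h4: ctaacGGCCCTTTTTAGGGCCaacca
Hist1h4i and Hist2h4 shared a loop of 4 T where Hist1h4h ends its loop in C, and these were the only H4 genes of the 11 with a stem-loop to do so. Hist1h2bk was 1 of 6 genes whose loop ends in A. No such stem-loop stood in the annotated transcripts of Hist1h2bc, Hist1h2aa, Hist1h2bl, Hist1h2br or Hist2h2bb. Absence says only that this exact pattern is not in the annotated transcripts, not that the mRNA lacks a stem-loop. Annotated transcripts ran on for 3 to 4884 bases after the stem-loop, and for over 100 bases in 22 of the 44 genes.

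Levels are the authors' FPKM, which correct the fragments of a gene for its length and for the size of the library. Relative depth, read from the step that 1 fragment makes in low values, was 0.555 to 1 in GTMut, 0.444 to 0.837 in D272Mut and 0.613 to 0.944 in WT, so the ranges overlap. Marf1 stood at 1.43 ± 0.130 FPKM in GTMut, 53.1 ± 1.02 in D272Mut and 25.8 ± 0.625 in WT (SD, n = 4 each). Libraries of one genotype correlated across genes at 0.965 to 0.990, and libraries of different genotypes at 0.789 to 0.964. The 12 oocyte markers summed to 11068 to 11616 FPKM in GTMut, 10318 to 10546 in D272Mut and 12355 to 12440 in WT. Gdf9, Bmp15 and Zar1 made most of that sum, and single markers moved both ways, with 4 higher and 7 lower in GTMut (5 and 4 after quantile normalization) and 3 higher and 8 lower in D272Mut (3 and 4). Ddx4, a germ cell helicase, was the lowest of them in WT, at 79.6 ± 2.77 FPKM in GTMut, 73.0 ± 6.27 in D272Mut and 11.8 ± 1.03 in WT. The 18 granulosa and cumulus markers summed to 149 to 164 FPKM in GTMut, 146 to 149 in D272Mut and 46.8 to 51.7 in WT. Most of that sum was Nr5a2, at 134 ± 5.50 FPKM in GTMut, 118 ± 1.69 in D272Mut and 26.5 ± 0.978 in WT. Of the others, Kitl averaged 11.7 FPKM in GTMut, 11.6 in D272Mut and 2.63 in WT, and Cyp19a1, the aromatase, 4.90, 6.53 and 11.7 in that order. Amh averaged 0.517 FPKM in GTMut, 1.39 in D272Mut and 1.10 in WT, and Fshr 0.179, 0.2996 and 1.26 in that order. Lhcgr was listed at 0 in all GTMut and WT libraries. The 16 markers of theca, stroma, endothelium and blood summed to 15.6 to 17.4 FPKM in GTMut, 16.9 to 20.1 in D272Mut and 24.9 to 26.9 in WT. These sums moved with genotype, and their part in the histone results was not tested.

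The Hist genes were expressed at low to moderate levels. Of the 67 genes, 12 averaged at least 10 FPKM over the 12 libraries, 44 averaged under 5 and 16 under 1, and 36 were above 0 in every library. Hist1h2bc, an H2B gene, was the highest at a mean of 127 FPKM, followed by Hist1h2aa at 49.1 and Hist1h2bg at 42.1. Hist1h2aa encodes the testis-type H2A (TH2A), a variant that oocytes also store. The highest H4 gene was Hist1h4i at 21.4 FPKM, the highest H1 gene Hist1h1c at 10.2 and the highest H3 gene Hist2h3c2 at 5.25. Hist1h1b and the testis linker histone gene Hist1h1t were listed at 0 in all 12 libraries. With Hist2h2be, whose highest value was 0.211 FPKM, they did not reach the 1 FPKM that a gene needed in any library to be tested, which left 64 tested genes.

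Summed over all 67 genes, the level was 540.2 ± 42.8 FPKM in GTMut, 479 ± 18.6 in D272Mut and 621 ± 52.1 in WT (SD, n = 4 each). The H2B sum was the one that lay below WT in both mutants. It was 217 to 258 FPKM in GTMut, 237 to 247 in D272Mut and 333 to 409 in WT, so no library of either mutant reached a WT library. H2B made 44.3% of the histone sum in GTMut, 50.4% in D272Mut and 61.2% in WT. Without Hist1h2bc the H2B sum was still 129.5 ± 10.7 FPKM in GTMut, 142 ± 5.68 in D272Mut and 208 ± 14.2 in WT. The H4 sum went the other way in GTMut, at 93.4 to 133 FPKM, against 59.3 to 83.5 in D272Mut and 64.7 to 85.8 in WT, and the GTMut libraries overlapped neither. That separation rested on Hist1h4i, and without it the H4 sum was 60.3 to 87.7 FPKM in GTMut, 47.5 to 68.0 in D272Mut and 50.3 to 76.7 in WT, which overlap. The H1 sum also stood apart in GTMut, at 25.2 to 28.3 FPKM, against 14.02 to 22.5 in D272Mut and 13.8 to 20.97 in WT. Without Hist1h1c it was 9.84 to 13.2 FPKM in GTMut, 8.19 to 12.9 in D272Mut and 7.75 to 11.3 in WT, which overlap. The H2A and H3 sums overlapped between all genotypes. Without Hist1h2aa, however, the H2A sum was 68.4 to 80.3 FPKM in GTMut, 84.4 to 92.9 in D272Mut and 60.5 to 75.9 in WT, so that D272Mut lay above both. The sums without the highest gene of a type were chosen after seeing the data. A sum of FPKM weights each gene by its level. The labels give 80 oocytes for each library, but they do not count cells of other types. A changed share of such cells and a changed amount of RNA per oocyte cannot be told apart here.

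**Figure D1:**
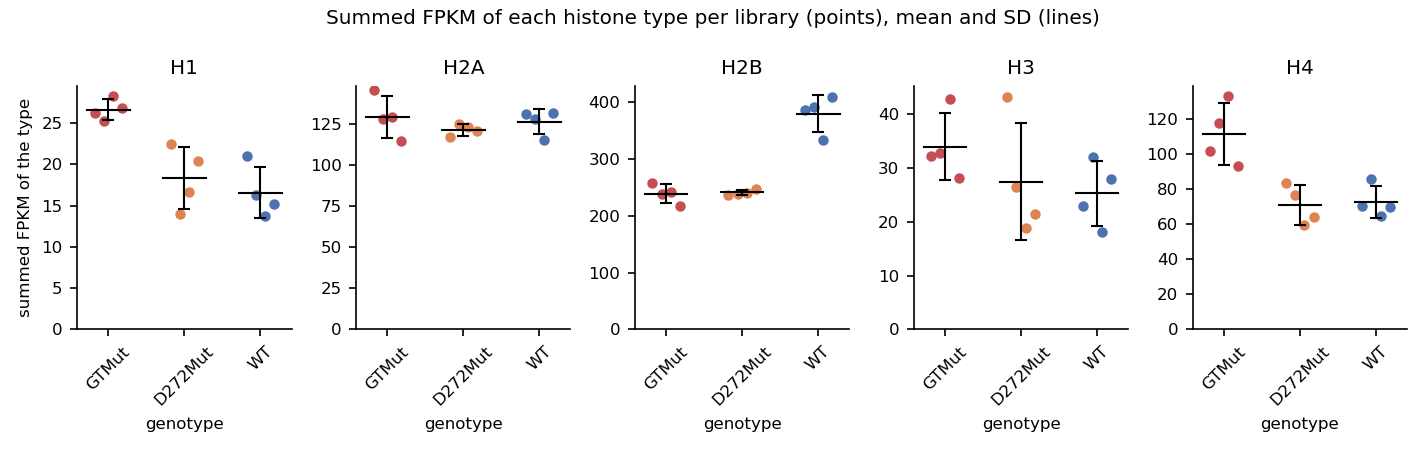
Summed FPKM (vertical axes, each from 0) of the H1, H2A, H2B, H3 and H4 genes in each of the 4 libraries of GTMut, D272Mut and WT, with points for libraries and lines for the mean and SD. The H2B sums of both mutants lie below all WT libraries, and the H4 and H1 sums of GTMut lie above those of the other genotypes.

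In GTMut against WT, 20 of the 64 tested Hist genes passed an adjusted p of 0.05 (limma on log2(FPKM + 1), Benjamini-Hochberg over 12980 genes), 10 higher and 10 lower. That is 31.2% of the genes, against 77.5% of all genes tested (38.3% higher, 39.2% lower). The libraries of the genotypes did not overlap for 16 Hist genes, against 72.9% of all genes. Among genes averaging at least 5 FPKM, 11 of 23 Hist genes were called, against 84.4% of all such genes. The median log2 fold change was 0.13 over the Hist genes and -0.02 over all genes. Of 17 tested H2B genes 8 fell and 1 rose, that is 47.1% and 5.88%, against 39.2% lower and 38.3% higher over all genes. Among the other types 2 of 4 H1, 3 of 18 H2A, 2 of 12 H3 and 2 of 13 H4 genes rose, while 1 H2A and 1 H4 gene fell. After quantile normalization the H2B and H2A counts were the same, but H1 had 2 higher and 1 lower, and H3 and H4 each 1 higher and 1 lower. Differences between types were not tested.

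In D272Mut against WT, 12 of 64 Hist genes passed, 4 higher and 8 lower, which is 18.8% against 75.7% of all genes tested (36.3% higher, 39.5% lower). After quantile normalization the split was 2 higher and 18 lower, with the median of all genes at -0.25 there against -0.05. The libraries did not overlap for 9 Hist genes, against 69.1% of all genes, and the median log2 fold change was -0.13. At a mean of at least 5 FPKM, 7 of 23 Hist genes were called, against 83.5% of all such genes. Of 17 H2B genes 6 fell and none rose (limma), and the 35.3% that fell is below the 39.5% of all genes. Under the alternatives tried, none rose and 5 to 11 fell. The GTMut and D272Mut comparisons share the WT libraries, so their similarity is not independent evidence.

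In D272Mut against GTMut, 10 of 64 Hist genes passed, 4 higher and 6 lower, or 15.6% against 39.6% of all genes tested (19.3% higher, 20.2% lower). Libraries did not overlap for 11, against 37.4% of all genes. At a mean of at least 5 FPKM, 9 of 23 Hist genes were called, against 46.8% of all such genes. Below that level 1 of 41 Hist genes was called, so the low share is mostly that of low genes. The calls were 1 H1 gene lower, 2 H2A higher and 1 lower, 2 H2B higher and 2 lower, and 2 H4 lower. No H3 gene was called, with 12 tested and log2 fold changes of -1.01 to 0.41.

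**Figure D2:**
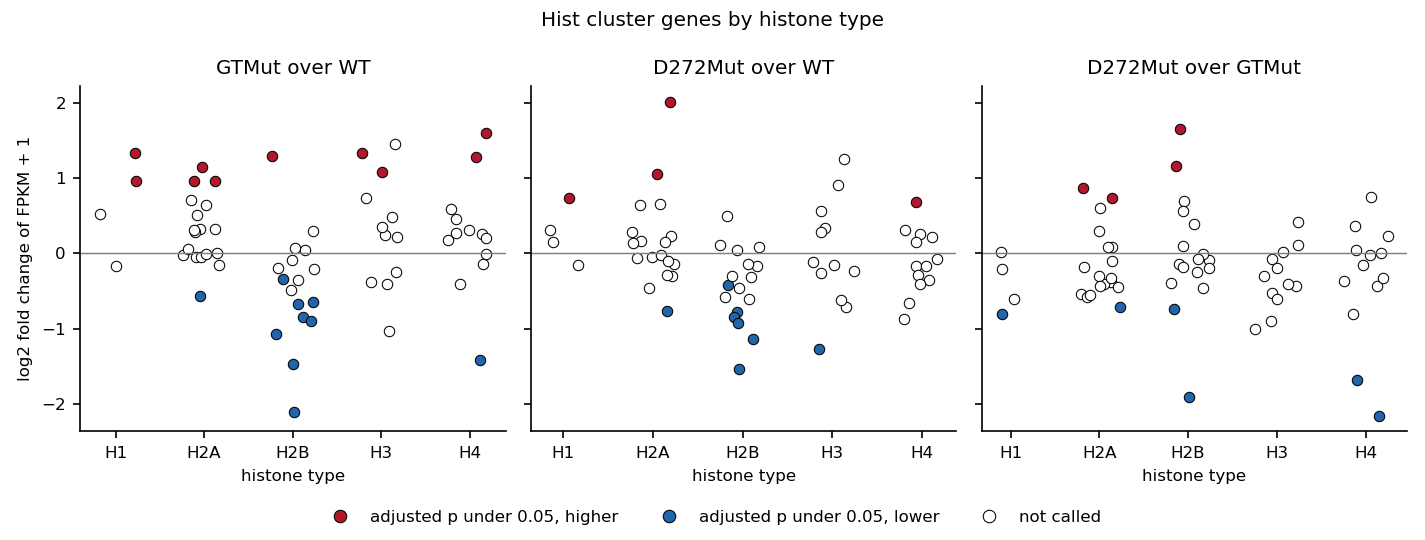
Log2 fold change of FPKM + 1 (vertical axis) of the 64 tested Hist genes by histone type, for GTMut over WT, D272Mut over WT and D272Mut over GTMut. Filled points passed an adjusted p of 0.05 with limma, 8 of 17 H2B genes lower in GTMut and 6 of 17 lower in D272Mut, and open points did not.

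The H2B genes that fell in both mutants were Hist1h2bc, Hist1h2be, Hist1h2bg, Hist1h2bl and Hist1h2br. Hist1h2bc (chromosome 13, 23684197 to 23692480 as listed) stood at 122, 109.6, 104 and 102 FPKM in GTMut, 95.2, 94.2, 106 and 99.7 in D272Mut, and 178, 179, 143 and 186 in WT. Every mutant library lay below every WT library. The log2 fold change was -0.64 ± 0.08 in GTMut (SE, adjusted p = 4.51e-06) and -0.78 ± 0.08 in D272Mut (adjusted p = 6.32e-07). Hist1h2be (chromosome 13, 23583668 to 23621124), a gene listed with a long spliced locus, had 17.7, 17.2, 26.4 and 24.7 FPKM in GTMut, 24.1, 25.4, 16.5 and 19.5 in D272Mut, and 30.0, 44.3, 39.9 and 42.8 in WT. Its libraries did not overlap between either mutant and WT either, and it was lower by the same log2 fold change of -0.85 ± 0.17 in GTMut (adjusted p = 0.000354) and D272Mut (adjusted p = 0.00037). Hist1h2bg (chromosome 13, 23571398 to 23571863) had 39.5, 41.2, 42.5 and 32.9 FPKM in GTMut, 39.2, 39.2, 38.6 and 30.7 in D272Mut, and 43.6, 49.7, 43.9 and 64.0 in WT. The groups again did not overlap, but by a small margin, and the fold change of -0.35 ± 0.12 in GTMut lost its call without GTMut replicate 4 (-0.27) or WT replicate 4 (-0.23). In D272Mut it was -0.43 ± 0.12 (adjusted p = 0.00573).

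Hist1h2bl (chromosome 13, 21715711 to 21716143) had 6.07, 7.86, 11.05 and 3.93 FPKM in GTMut, 3.67, 3.99, 8.15 and 3.87 in D272Mut, and 13.8, 12.6, 15.4 and 21.3 in WT. No mutant library reached WT, and the log2 fold change was -1.08 ± 0.27 in GTMut (adjusted p = 0.00232) and -1.54 ± 0.27 in D272Mut (adjusted p = 0.000141). Hist1h2br, at 1.05 to 2.26 FPKM in GTMut, 1.13 to 1.61 in D272Mut and 3.86 to 5.31 in WT, fell by 0.90 and 1.14 on the log2 scale in the 2 mutants, each against WT (SE 0.15 for both). Its listed position (21806410 to 21810199) is the one that RefSeq gives to Hist1h2bq, so its name is uncertain.

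A further pair of H2B genes fell in GTMut and stood higher in D272Mut than in GTMut. Hist3h2ba (chromosome 11, 58948909 to 58949372) had 14.6, 6.83, 8.74 and 6.83 FPKM in GTMut, 24.5, 27.1, 28.9 and 41.7 in D272Mut, and 52.7, 39.2, 37.1 and 39.1 in WT. GTMut lay below all other libraries, while D272Mut and WT overlapped. The log2 fold change was -2.12 ± 0.21 in GTMut against WT (adjusted p = 5.2e-07). D272Mut against WT gave -0.46 ± 0.21 (adjusted p = 0.0621) and D272Mut against GTMut 1.65 ± 0.21 (adjusted p = 4e-05). By the authors' deposited Cuffdiff values, however, Hist3h2ba was called lower in D272Mut than in WT (log2 fold change -0.39, q = 0.0209). An estimated 10 to 26 fragments per library lay behind its GTMut values, 23 to 63 behind D272Mut and 57 to 73 behind WT.

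Hist1h2bk (chromosome 13, 22035819 to 22036320) had 4.02, 3.92, 4.51 and 5.88 FPKM in GTMut, 13.8, 8.96, 9.12 and 15.02 in D272Mut, and 20.6, 16.6, 12.8 and 9.45 in WT. Again GTMut stood alone, at -1.47 ± 0.22 against WT (adjusted p = 2.58e-05), and D272Mut was higher than GTMut by 1.17 ± 0.22 (adjusted p = 0.000768). In D272Mut against WT the value was -0.30 ± 0.22 (adjusted p = 0.221).

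Of the other H2B genes called, Hist1h2bh, at 6.97, 11.3, 6.26 and 6.21 FPKM in GTMut, 1.71, 4.97, 6.09 and 4.81 in D272Mut, and 9.53, 9.85, 7.38 and 8.19 in WT, was lower in D272Mut than in WT by a log2 fold change of -0.93 ± 0.26 (adjusted p = 0.00474). It was also lower in D272Mut than in GTMut (-0.74 ± 0.26), a call that ended without D272Mut replicate 1 (-0.44), GTMut replicate 1 (-0.77) or GTMut replicate 2 (-0.56). That call also ended without the filter on low values, with only the 2 genotypes compared and without the intensity trend. Hist1h2bm rested on at most an estimated 2 fragments in any library, and its call in GTMut (adjusted p = 0.0462) ended under 14 of the alternatives tried, which included leaving out D272Mut replicate 2, 3 or 4, GTMut replicate 1, 3 or 4, or WT replicate 2, 3 or 4. Hist2h2bb (chromosome 3, 96269698 to 96270192) was the H2B gene that rose. It had 14.5, 4.02, 10.8 and 6.47 FPKM in GTMut, 1.89, 1.84, 0.520 and 1.78 in D272Mut, and 4.94, 1.21, 3.18 and 2.42 in WT. GTMut lay above D272Mut in every library and overlapped WT only through GTMut replicate 2, with a log2 fold change of 1.30 ± 0.36 against WT (adjusted p = 0.00456). D272Mut was lower than GTMut by -1.91 ± 0.36 (adjusted p = 0.000871).

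**Figure D3:**
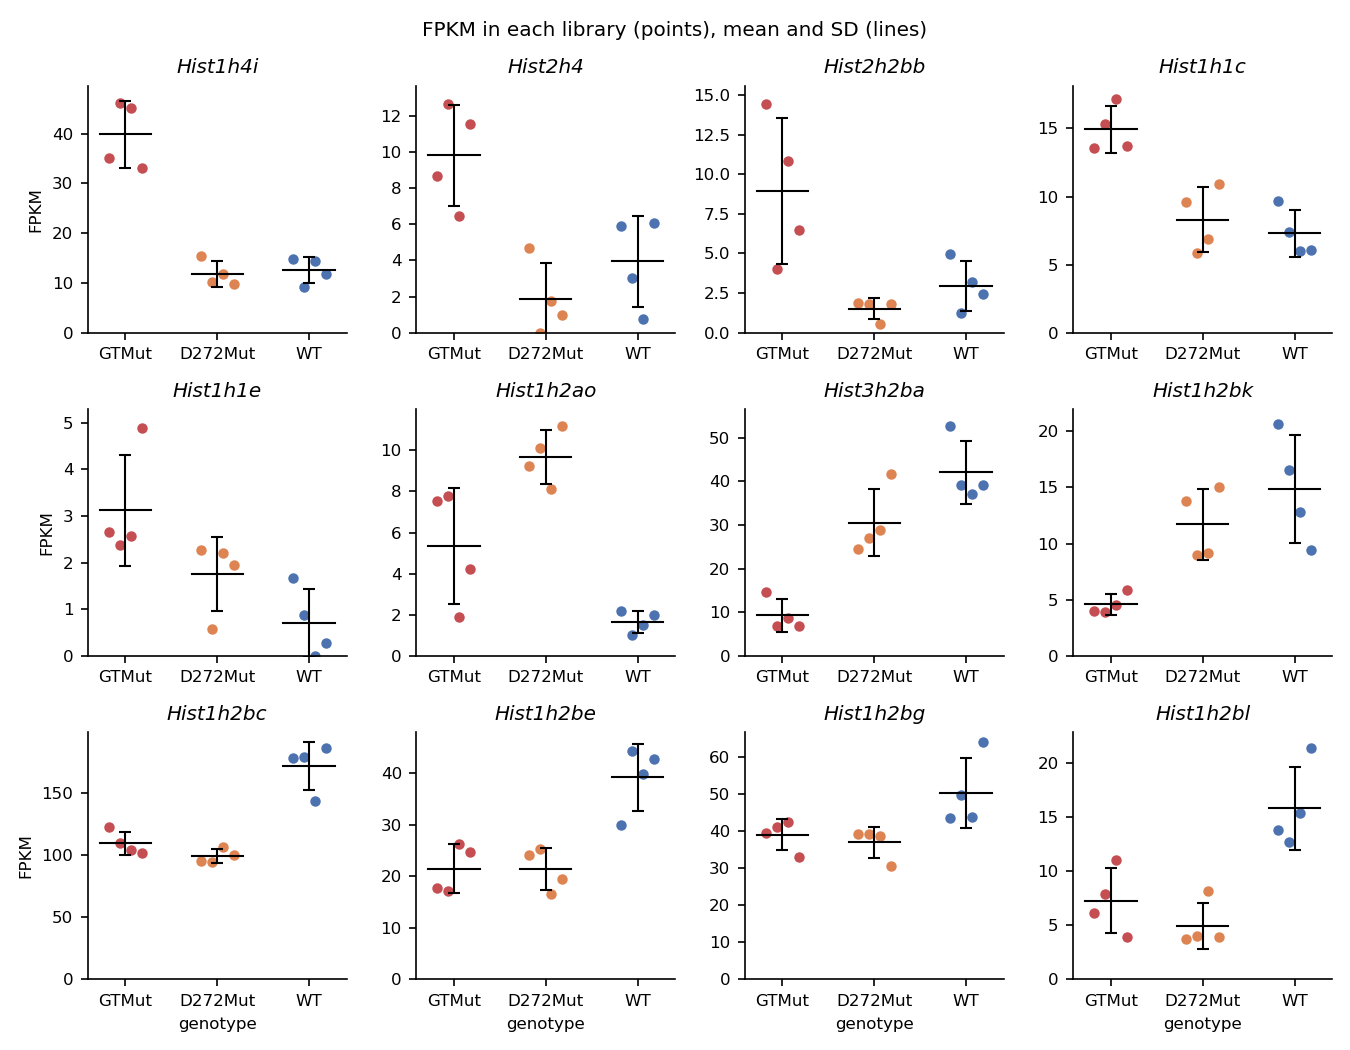
FPKM in each of the 4 libraries (points) of GTMut, D272Mut and WT for 12 Hist genes, with the mean and SD as lines and each vertical axis starting at 0. Hist1h4i is high in GTMut alone (33.0 to 46.1 FPKM), Hist3h2ba is low in GTMut (6.83 to 14.6), and Hist1h2bc is below WT in both mutants.

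Among H2A genes, Hist1h2aa (chromosome 13, 23934460 to 23934913), the TH2A gene, fell in D272Mut. It had 65.5, 51.7, 61.1 and 45.9 FPKM in GTMut, 30.1, 37.7, 38.8 and 28.1 in D272Mut, and 60.1, 59.5, 54.8 and 55.9 in WT. D272Mut lay below all other libraries and GTMut overlapped WT. D272Mut was lower than WT by -0.77 ± 0.12 (adjusted p = 3.37e-05) and lower than GTMut by -0.72 ± 0.12 (adjusted p = 0.000256). Its divergent neighbour Hist1h2ba, the testis-type H2B gene, was not called in any comparison. It had -0.17 ± 0.38 in D272Mut against WT and -0.08 ± 0.38 in GTMut against WT. With so wide an SE, a difference from Hist1h2aa cannot be read from these values, and it was not tested.

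Hist1h2ao (chromosome 13, 21810365 to 21810918) rose in both mutants, with 7.55, 7.78, 1.89 and 4.22 FPKM in GTMut, 9.22, 10.1, 8.12 and 11.2 in D272Mut, and 2.19, 0.993, 1.49 and 1.97 in WT. D272Mut lay above all other libraries, while GTMut overlapped WT in replicate 3. The log2 fold changes were 1.15 ± 0.29 in GTMut (adjusted p = 0.00241) and 2.02 ± 0.29 in D272Mut (adjusted p = 2.17e-05), and neither passed in the authors' deposited q-values. The table lists Hist1h2ap at the same coordinates, so that reads could be split between the names. The sum of both, a calculation chosen after seeing the data, was 7.51 ± 3.16 FPKM in GTMut, 13.3 ± 1.65 in D272Mut and 4.00 ± 2.17 in WT, with log2 fold changes of 0.81 ± 0.31 in GTMut (adjusted p = 0.0276) and 1.63 ± 0.31 in D272Mut (adjusted p = 0.000268).

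Hist2h2aa1 and Hist2h2aa2 were likewise listed at 1 position (chromosome 3, 96239777 to 96240374). Hist2h2aa1 had 25.8, 21.04, 14.96 and 22.2 FPKM in GTMut, 27.1, 36.6, 37.7 and 40.6 in D272Mut, and 34.7, 24.98, 32.3 and 33.7 in WT. Summed with Hist2h2aa2 the level was 23.7 ± 3.84 FPKM in GTMut, 37.3 ± 2.59 in D272Mut and 32.5 ± 2.31 in WT. The sum was lower in GTMut than in WT by -0.45 ± 0.09 (adjusted p = 0.000513) and higher in D272Mut than in GTMut by 0.64 ± 0.09 (adjusted p = 0.000104). Hist1h2ag had 3.37, 2.73, 2.52 and 3.75 FPKM in GTMut, 3.07, 3.33, 4.52 and 2.58 in D272Mut, and 2.30, 0.659, 0.494 and 1.32 in WT. Both mutants stood above WT in every library, by 0.96 ± 0.22 in GTMut (adjusted p = 0.00122) and 1.05 ± 0.22 in D272Mut (adjusted p = 0.000641), on an estimated 1 to 8 fragments. Hist2h2ab was listed at 0 in all WT libraries and at 0 to 2.92 FPKM in GTMut, and its call in GTMut (adjusted p = 0.044) ended without any 1 of the WT libraries, GTMut replicate 1, 2 or 3, or D272Mut replicate 2. That call also ended without the filter on low values and without the intensity trend. Hist3h2a, at 22.9 to 23.8 FPKM in GTMut, 16.2 to 26.7 in D272Mut and 16.8 to 20.7 in WT, was not called (0.31 ± 0.14 in GTMut, adjusted p = 0.0564), in contrast to its cluster neighbour Hist3h2ba, although the difference between the genes was not tested.

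The H4 genes encode an identical or nearly identical protein, and the called ones did not share a direction. Hist1h4i (chromosome 13, 22040958 to 22041362) had 35.1, 46.1, 45.2 and 33.0 FPKM in GTMut, 15.5, 10.1, 11.8 and 9.83 in D272Mut, and 14.8, 9.09, 14.3 and 11.8 in WT. All GTMut libraries lay more than 2-fold above every other library, and D272Mut and WT overlapped. The log2 fold change was 1.60 ± 0.16 in GTMut against WT (adjusted p = 7e-07), -0.08 ± 0.16 in D272Mut against WT (adjusted p = 0.681) and -1.68 ± 0.16 in D272Mut against GTMut (adjusted p = 3.79e-06). Hist2h4 (chromosome 3, 96262932 to 96263317), with the same stem-loop as Hist1h4i, had 8.70, 12.6, 6.45 and 11.5 FPKM in GTMut, 4.69, 0, 1.75 and 0.996 in D272Mut, and 5.90, 3.04, 0.760 and 6.09 in WT. GTMut lay above both other genotypes, narrowly against WT, on at most an estimated 21 fragments per library. Its log2 fold change of 1.29 ± 0.50 (adjusted p = 0.0302) lost its call without GTMut replicate 2 (1.16) or 4 (1.21), or WT replicate 2 (1.26) or 3 (0.86). The call also ended with a pseudocount of 0.1, without the filter on low values and after quantile normalization. In D272Mut against GTMut the log2 fold change was -2.16 ± 0.50 (adjusted p = 0.00377).

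Of the other H4 genes, Hist4h4 (chromosome 6, 136803991 to 136804431) was lower in GTMut, at 0, 0.631, 0 and 1.08 FPKM, against 2.65, 3.80, 2.85 and 1.52 in WT. That is an estimated 0 to 2 fragments per GTMut library and 2 to 5 per WT library, and the fold change was -1.41 ± 0.37 (adjusted p = 0.00301). Hist1h4k was higher in D272Mut, at 3.04 to 6.05 FPKM against 1.76 to 3.53 in WT (0.68 ± 0.22, adjusted p = 0.013), with overlapping libraries. That call ended after quantile normalization. Hist1h4a and Hist1h4h, at means of 20.02 and 13.6 FPKM the next H4 genes by level, were not called in any comparison. Their log2 fold changes in GTMut against WT were 0.26 ± 0.17 and 0.20 ± 0.21.

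The linker histone gene Hist1h1c (chromosome 13, 23738805 to 23739531), which encodes a widely expressed somatic H1, had 13.5, 15.4, 17.2 and 13.7 FPKM in GTMut, 9.62, 5.83, 6.84 and 10.9 in D272Mut, and 9.68, 7.42, 6.02 and 6.08 in WT. GTMut lay above all other libraries, by 0.96 ± 0.17 against WT (adjusted p = 0.000186), and D272Mut was lower than GTMut by -0.81 ± 0.17 (adjusted p = 0.00235). Hist1h1e, another somatic H1 gene, had 2.67, 2.37, 2.57 and 4.90 FPKM in GTMut, 2.27, 0.581, 2.21 and 1.96 in D272Mut, and 1.67, 0.867, 0 and 0.287 in WT. These correspond to 7 to 24 fragments in GTMut, 2 to 9 in D272Mut and 0 to 5 in WT. GTMut stood above WT in every library (1.34 ± 0.31, adjusted p = 0.0013). D272Mut overlapped WT, and its call (0.73 ± 0.31, adjusted p = 0.0442) ended without D272Mut replicate 1, 3 or 4, GTMut replicate 1, 2 or 3, or WT replicate 3 or 4, with values of 0.51 to 0.73. The call also ended without the filter on low values, after quantile normalization, with only the 2 genotypes compared and without the intensity trend.

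H3 genes were low, and 3 of them were called. Hist1h3a had 6.49, 3.40, 2.99 and 6.25 FPKM in GTMut, 6.40, 2.96, 2.01 and 2.29 in D272Mut, and 2.73, 2.35, 0.880 and 0 in WT. GTMut lay above WT, narrowly (1.34 ± 0.40, adjusted p = 0.00745). Hist1h3g, at 3.03 to 7.75 FPKM in GTMut and 0 to 3.20 in WT, was higher by 1.09 ± 0.41 (adjusted p = 0.0256), a call lost without GTMut replicate 2 (1.02) or 3 (0.92). That call was also lost with a pseudocount of 0.1, after quantile normalization and with only the 2 genotypes compared. Hist1h3e was lower in D272Mut (-1.28 ± 0.35, adjusted p = 0.0045), where it was listed at 0 in 3 libraries and at 0.671 FPKM, or 1 fragment, in the other, against 0.498 to 3.99 FPKM or 1 to 6 fragments in WT. Hist2h3c1 and Hist2h3c2, at the same listed coordinates, could exchange reads. Hist2h3c1 was at most 8.97 FPKM in GTMut, 7.76 in D272Mut and 0.0129 in WT, and Hist2h3c2 at most 5.92, 11.9 and 8.33 in that order. Their sum was 6.94 ± 1.89 FPKM in GTMut, 8.45 ± 2.36 in D272Mut and 6.49 ± 1.31 in WT, and was not called.

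Along chromosome 13, Hist1h2bk fell in GTMut and the next Hist genes, Hist1h4i and then Hist1h2ag, rose, while Hist1h2ah on its other side was not called. On chromosome 3, Hist2h4 and Hist2h2bb rose in GTMut, and Hist2h3b, which lies between them, had 0.74 ± 0.41 (adjusted p = 0.117) on 4 to 6 fragments in GTMut and 0 to 5 in WT. An H2A and an H2B gene often share a divergent promoter, with starts on opposite strands. Of 11 such pairs within 500 bases 10 had both genes tested, and in no pair were both genes called, in any of the 3 comparisons. With 31.2%, 18.8% and 15.6% of the tested Hist genes called, few joint calls would be expected in 10 pairs. Several H2A partners were also too low to be called easily, such as Hist1h2ak at a mean of 0.198 FPKM and Hist1h2ae at 0.549. The lack of joint calls therefore says little about the pairs. In 5 of the 10 pairs 1 gene was called in GTMut against WT, as in D272Mut against WT, and in 2 pairs in D272Mut against GTMut. Examples in GTMut are Hist1h2bk (-1.47 ± 0.22) with Hist1h2ah (-0.01 ± 0.30, on 2 to 6 fragments in GTMut and in WT), and Hist1h2bl (-1.08 ± 0.27) with Hist1h2ai (0.51 ± 0.32, on 2 to 4 fragments in GTMut and 1 to 3 in WT). The difference within pairs was not tested. By stem-loop, 7 genes rose and 7 fell in GTMut against WT among 43 tested genes with an annotated stem-loop, and 3 rose and 3 fell among 21 without one. In D272Mut against WT 3 rose and 4 fell with it, and 1 rose and 4 fell without it. In D272Mut against GTMut 4 rose and 4 fell with it, and none rose and 2 fell without it. All these shares are below the 77.5%, 75.7% and 39.6% of all genes called in the 3 comparisons.

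**Figure D4:**
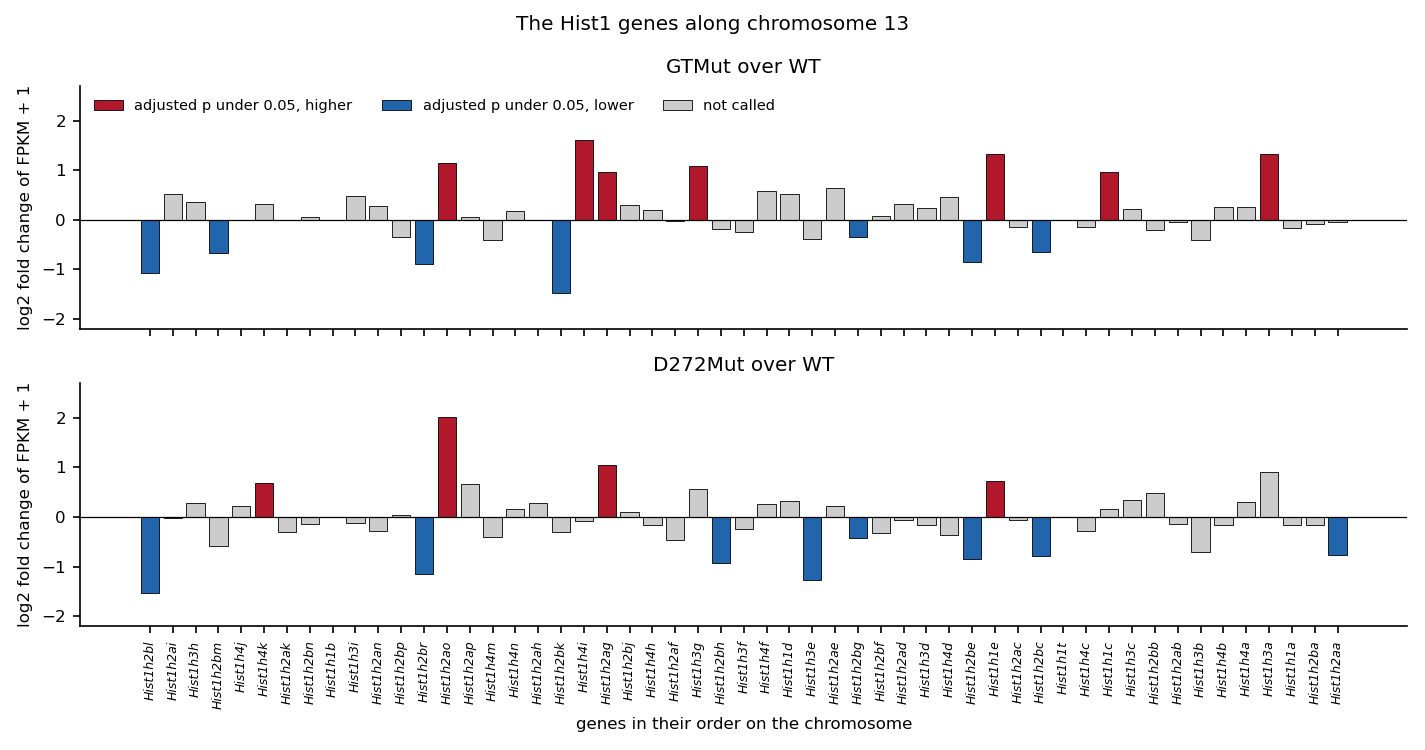
Log2 fold change of FPKM + 1 (vertical axis) of the Hist1 genes in their order on chromosome 13 (horizontal axis, not to scale), for GTMut over WT above and D272Mut over WT below. Coloured bars passed an adjusted p of 0.05 with limma, and called genes such as Hist1h2bk (lower) and Hist1h4i (higher) in GTMut stand side by side. Hist1h1b and Hist1h1t, listed at 0, have no bar.

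The upstream sequences are shown for genes that moved in opposite directions. RefSeq (GRCm38.p6) start sites within 100 bases of the listed gene end were found for 56 of the 67 genes, and the 250 bases before each start were searched on both strands for TATAAA, for CCAAT and for ATTTGCAT, the octamer bound by OCT factors. No 2 of these motifs overlap by their letters in the sequences below. The 120 bases before the start follow, on the coding strand, with any of these motifs, or their reverse complements, in capitals. The windows are chr3:96269580-96269699 (Hist2h2bb, plus strand), chr13:22041363-22041482 (Hist1h4i, minus strand), chr13:22035701-22035820 (Hist1h2bk, plus strand), chr13:21716184-21716303 (Hist1h2bl, minus strand), chr13:23571280-23571399 (Hist1h2bg, plus strand) and chr11:58948791-58948910 (Hist3h2ba, plus strand).
Hist2h2bb: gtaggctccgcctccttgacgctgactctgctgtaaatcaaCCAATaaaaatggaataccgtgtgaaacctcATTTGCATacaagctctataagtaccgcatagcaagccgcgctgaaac
Hist1h4i: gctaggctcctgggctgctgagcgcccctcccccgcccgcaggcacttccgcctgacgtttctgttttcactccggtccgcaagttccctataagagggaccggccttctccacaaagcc
Hist1h2bk: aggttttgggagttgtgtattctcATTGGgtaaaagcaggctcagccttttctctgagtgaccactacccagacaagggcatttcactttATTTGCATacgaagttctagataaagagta
Hist1h2bl: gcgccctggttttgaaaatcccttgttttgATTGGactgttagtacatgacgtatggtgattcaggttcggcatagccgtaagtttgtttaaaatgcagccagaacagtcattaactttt
Hist1h2bg: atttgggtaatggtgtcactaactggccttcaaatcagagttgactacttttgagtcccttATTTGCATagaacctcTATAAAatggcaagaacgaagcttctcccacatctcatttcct
Hist3h2ba: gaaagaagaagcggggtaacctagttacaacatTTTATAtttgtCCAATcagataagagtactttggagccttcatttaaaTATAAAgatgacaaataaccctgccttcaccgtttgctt
CCAAT stood in the 250 bases of 6 of 6 H1 genes, 16 of 16 H2A genes, 14 of 14 H2B genes, 8 of 9 H3 genes and 3 of 11 H4 genes, against 34.5% of 27025 RefSeq promoters. The octamer stood in 6 of 14 H2B and 7 of 16 H2A genes and in no H1, H3 or H4 gene, against 1.61% of all promoters, and TATAAA in 28 of 56 against 13%. The 250-base windows of divergent H2A and H2B neighbours can overlap, so the same site can be counted under both types. Such shared octamers were those of Hist1h2ae and Hist1h2bg, Hist1h2ah and Hist1h2bk, and Hist1h2aa and Hist1h2ba. Among H2B genes with a matched start, the octamer was in the 1 that rose in GTMut (Hist2h2bb), in 3 of 6 that fell (Hist1h2bk and Hist1h2bg among them) and in 2 of 7 that were not called. A match is a description of letters, and absence says only that they are not in these windows.

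Genes that act on histone mRNA were read from lists. Of 28 genes for transcription and 3′ processing of histone mRNA, 13 rose and 8 fell in GTMut against WT (13 and 10 after quantile normalization), and 13 rose and 7 fell in D272Mut (13 and 12). The share called was 75% in GTMut and 71.4% in D272Mut, near the 77.5% and 75.7% of all genes. Yy1, a transcription factor, stood at 188 ± 10.1 FPKM in GTMut, 155 ± 7.40 in D272Mut and 12.6 ± 1.42 in WT. Cpsf2, a subunit of the cleavage complex, was at 21.6 ± 0.380 FPKM in GTMut, 22.5 ± 0.792 in D272Mut and 7.43 ± 0.282 in WT, higher in both mutants, as were Yy1, the cap-binding gene Ncbp1 (2.86 ± 0.10 in GTMut) and the Sm protein gene Snrpb (2.79 ± 0.10 in GTMut). Slbp, the stem-loop binding protein, was the highest at 707 ± 23.7 FPKM in GTMut, 629 ± 60.7 in D272Mut and 651 ± 32.5 in WT, and was not called against WT in either mutant (adjusted p = 0.0845 in GTMut and 0.452 in D272Mut). Ccne1, a cyclin that activates the histone gene factor NPAT, stood at 33.1 ± 2.63 FPKM in GTMut, 24.1 ± 2.79 in D272Mut and 2.04 ± 0.532 in WT, and Npat itself at 11.2 ± 0.762, 11.9 ± 0.655 and 5.50 ± 0.173 in the same order, with all 4 mutant changes called. Lsm10 and Lsm11, Sm-like proteins of the processing U7 particle, were lower in GTMut (-0.36 ± 0.05 and -0.46 ± 0.06). Lsm10 was also lower in D272Mut (-0.38 ± 0.05), while Lsm11 was not called there (-0.11 ± 0.06, adjusted p = 0.0898 with limma). Lsm11 was higher in D272Mut than in GTMut (0.35 ± 0.06, adjusted p = 0.000291 with limma). Casp8ap2 (FLASH), a processing factor, was at 11.3 ± 0.468 FPKM in GTMut, 15.8 ± 0.879 in D272Mut and 27.5 ± 0.981 in WT, lower in both.

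Of 13 tested genes for decay and tailing of histone mRNA, 4 rose and 9 fell in GTMut, and 3 rose and 8 fell in D272Mut. That is 69.2% lower in GTMut and 61.5% in D272Mut, against 39.2% and 39.5% of all genes. Whether the list differs from other genes was not tested. Eri1, the exonuclease that trims the stem-loop end, stood at 24.4 ± 0.807 FPKM in GTMut, 23.8 ± 1.21 in D272Mut and 8.35 ± 0.486 in WT. Lsm1, of the cytoplasmic decay ring, was at 54.8 ± 1.45 FPKM in GTMut, 54.3 ± 2.56 in D272Mut and 7.78 ± 0.502 in WT, and Zcchc6, a terminal uridylyltransferase, at 12.4 ± 0.128, 15.03 ± 0.603 and 2.17 ± 0.200 in that order. Upf1, the helicase that starts histone mRNA decay, was lower in both mutants, at 11.7 ± 1.14 FPKM in GTMut, 12.8 ± 0.997 in D272Mut and 34.8 ± 0.921 in WT. All 8 of these changes were called.

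Replacement histones are made outside S phase, and the highest of them exceeded every Hist gene in FPKM. H1foo, the oocyte linker histone, was at 1639 ± 53.9 FPKM in GTMut, 1715 ± 78.7 in D272Mut and 2154 ± 11.5 in WT, lower in both mutants. H2afz rose most, to 97.5 ± 6.09 FPKM in GTMut and 92.9 ± 8.40 in D272Mut, against 5.82 ± 0.614 in WT. Of 13 tested replacement histones 6 rose and 3 fell in GTMut (5 and 5 after quantile normalization) and 7 rose and 3 fell in D272Mut (6 and 3), so 69.2% and 76.9% were called, against 77.5% and 75.7% of all genes. H3f3b was higher in both (0.20 ± 0.05 in GTMut and 0.41 ± 0.05 in D272Mut) and H3f3a lower (-0.30 ± 0.04 and -0.27 ± 0.04), and both encode the same replacement H3 protein.

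Of 23 histone chaperones, 6 rose and 12 fell in GTMut (5 and 15 after quantile normalization) and 3 rose and 16 fell in D272Mut (3 and 18). The share lower was 52.2% in GTMut and 69.6% in D272Mut, against 39.2% and 39.5% of all genes. Nasp, the H1 and H3-H4 chaperone, was at 115 ± 7.53 FPKM in GTMut, 100.2 ± 4.07 in D272Mut and 162 ± 3.27 in WT, and Asf1a at 77.4 ± 2.34, 73.6 ± 2.62 and 105 ± 3.01 in that order. Daxx, which deposits the replacement H3, rose in both (1.20 ± 0.04 in GTMut and 1.33 ± 0.04 in D272Mut). Of 23 replication and proliferation genes 4 rose and 13 fell in each mutant against WT, which is 56.5% lower, with Mcm4, of the replicative helicase, at 19.99 ± 0.365 FPKM in GTMut, 23.95 ± 0.500 in D272Mut and 39.4 ± 1.69 in WT. Between the mutants, D272Mut against GTMut, 4 rose and 6 fell among the processing genes (35.7% called) and 3 and 2 among the decay genes (38.5%). Among the replacement histones 3 rose and 1 fell (30.8%), among the chaperones 4 and 8 (52.2%) and among the replication genes 4 and 5 (39.1%). Of all genes 39.6% were called in that comparison (19.3% higher, 20.2% lower).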

How the data were processed

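Fully grown mouse oocytes of 3 Marf1 genotypes were sequenced as 12 libraries, 4 per genotype, with paired reads of 150 bases. The authors trimmed the reads, per the labels, aligned them with TopHat2 2.0.13 to the mm10 genome, and computed the deposited FPKM with Cufflinks 2.2.1, per the submitters' processing notes. Their deposited table adds, for each pair of genotypes, a Cuffdiff log2 fold change with its p-value and q-value, all made by the authors. No source used here states whether strand was used in counting. The labels are not uniform: one text speaks of lysed ovaries and Smart-seq2, another of collected oocytes and a random-primed kit. 1 line of the table without content was not analysed here.

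From these FPKM, log2(FPKM + 1) was fitted with limma 3.58.1 (R 4.3.3, intensity trend, 9 residual degrees of freedom) over all 12 libraries and the 12980 genes that reached 1 FPKM in any library, with Benjamini-Hochberg adjustment over these genes and a threshold of 0.05. The pipeline was tested on simulated data. Hist genes named were, per comparison, those past the threshold (at most 10 per direction, by size), the 12 highest and the highest of each type. List genes came from the 6 of smallest p per comparison and the 3 highest, not all of which are given. Which of these to give, the neighbours of called genes and Npat were chosen after their values were seen. The histone genes and gene lists were chosen with earlier results of these data known.

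Counts and depths are not in the table. Relative depth came from the step that 1 fragment makes in FPKM under 0.3, and the fragments behind a value from the steps of its own gene (16 genes, within 0.1 fragments), by interpolation over length (29 genes) or as an upper bound (16 short genes). Their precision is that of counting error, and PCR duplicates are not separated. Near-identical Hist genes can exchange reads, and 4 pairs share coordinates. Alternatives varied the pseudocount, filter, rescaling, trend, libraries and test.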

Additional observations from a re-analysis of the deposited data

Results flagged for a closer look

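The effects of the mutants against WT differed between D272Mut and GTMut for 10 Hist genes, by limma's test of the difference itself. D272Mut minus GTMut on the log2 scale was 1.65 for Hist3h2ba, 1.17 for Hist1h2bk, 0.87 for Hist1h2ao and 0.74 for Hist2h2aa1. It was -2.16 for Hist2h4, -1.91 for Hist2h2bb, -1.68 for Hist1h4i, -0.81 for Hist1h1c, -0.74 for Hist1h2bh and -0.72 for Hist1h2aa. The same contrast is the comparison of D272Mut with GTMut described above.

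In 11 of 81 groups of 4 libraries, formed by 27 named genes and 3 genotypes, 1 library stood far from the other 3. Far means a gap of over 0.829 of the range (Dixon's ratio). That limit flags about 1 group in 20 by chance for continuous normal values, but some of these values rest on few fragments. Where the other 3 libraries are at 0 the ratio is always 1. Of the 27 genes, 24 were called in a comparison, so no excess over chance can be read from the count. Values were high in GTMut replicate 4 for Hist1h1e (4.90 FPKM, the others 2.37 to 2.67), in GTMut replicate 2 for Hist1h2bh (11.3, the others 6.21 to 6.97), in D272Mut replicate 3 for Hist1h2bl (8.15, the others 3.67 to 3.99) and in WT replicate 1 for Hist3h2ba (52.7, the others 37.1 to 39.2). They were low in D272Mut replicate 4 for Hist1h2bg (30.7, the others 38.6 to 39.2), in GTMut replicate 1 for Hist1h2br (1.05, the others 2.13 to 2.26), in D272Mut replicate 3 for Hist2h2bb (0.520, the others 1.78 to 1.89) and in WT replicate 1 for Hist1h3g (0, the others 3.04 to 3.20). For Hist1h2bm in GTMut (0.522 FPKM in replicate 2) and D272Mut (0.982 in replicate 1), and for Hist1h3e in D272Mut (0.671 in replicate 2), the other 3 libraries were listed at 0.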

How the results depend on the processing

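Of 42 gene results called in the main comparisons, 25 kept direction and call under every alternative run for them, 17 lost the call under at least 1 and 0 reversed. With only genes of mean FPKM at least 5, 11 Hist genes were called in GTMut against WT (4 higher, 7 lower) and 7 in D272Mut against WT (1 higher, 6 lower), against 20 and 12, since fewer genes were tested. In the main fit 84.4% and 83.5% of all genes at that level were called in these 2 comparisons. Quantile normalization gave 20 in D272Mut against WT (2 higher, 18 lower) with the median of all genes at -0.25. Leaving out 1 library at a time gave 17 to 22 calls in GTMut against WT, 11 to 14 in D272Mut against WT and 9 to 14 in D272Mut against GTMut. The authors' deposited q-values called 14 (7 higher, 7 lower), 9 (1 higher, 8 lower) and 7 (2 higher, 5 lower) in the same order. They lost the calls of Hist1h2ag, Hist1h2ao and Hist2h2aa1 in every comparison that had called them. Also lost were the calls of Hist1h2bm, Hist2h2ab and Hist4h4 in GTMut against WT. So were those of Hist1h3e and Hist1h4k in D272Mut against WT and of Hist1h2bh in D272Mut against GTMut. A call was added for Hist3h2ba, lower in D272Mut against WT (q = 0.0209). Hist1h2ao in D272Mut against GTMut (0.87) also lost its call without D272Mut replicate 2 (0.85) or 4 (0.80), or GTMut replicate 3 (0.54) or 4 (0.82). The same call ended without the filter on low values and with only the 2 genotypes compared. The causes were not tested. The share of all genes called is not given for the other alternatives in this section. A changed count of Hist calls can therefore not be told from a changed overall call rate.

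No pairing by replicate number was seen: deviations of same-numbered libraries correlated at -0.357 to 0.094, with 0 of 12 pairs over 0.1. The labels do not say whether the numbers mark animals or days, and these correlations cannot settle it. Libraries of different numbers correlated at up to 0.363 (GTMut replicate 2 with WT replicate 1), and a batch shared in another order was not tested. With the replicate block, 23 Hist genes were called in GTMut against WT, 13 in D272Mut against WT and 13 in D272Mut against GTMut. Summing genes at the same coordinates, added after seeing the data, left the counts at 20, 12 and 10. Genes of few fragments limit all of this: Hist1h2bm, Hist2h2ab, Hist1h3e and Hist4h4 rest on an estimated 0 to 6 fragments per library.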
